A study of Mus musculus with 52 samples.

Results

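Vehicle cultures harvested 4 days after the start of osteogenic medium were compared with vehicle cultures harvested after 1 day. The members were the arrays whose titles end in D4Vh (4 arrays) and in D1Vh (4 arrays), which made 8 of the 52 arrays of the series. Both groups held 1 array from each of pools 12, 15, 19 and 20, the numbers in the titles. The cells were primary bone marrow mesenchymal stromal cells of female C57BL/6J mice, 8 weeks old, flushed from femur, tibia and humerus. Marrow of 2 to 4 animals was combined into a pool, and each pool was a separate experiment. Cultures stood for 7 days in serum medium before the osteogenic medium was added. That medium held insulin (0.5 µg/ml), dexamethasone (10 nM), ascorbate (12.5 µg/ml) and β-glycerol phosphate (8 mM), together with DMSO at 0.1% in both groups, so that the groups differed in time alone. Naive cultures, harvested before the medium change, are given where a starting level helps. The other arrays came from cultures dosed with Rosi, LG268, TBT, TPhP or MEHP.

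Marrow stromal cells that attach to plastic are a mixture, in which contractile, stress-fibre-rich cells can go on to make bone matrix or to store fat. Osteoblasts lay down collagen and mineralise it, and those that become buried in the matrix turn into osteocytes. Osteoclasts, which resorb bone, are formed in another lineage by fusion of macrophage precursors under RANKL and CSF1, signals that stromal cells give. Dexamethasone, ascorbate and a phosphate source are the usual additives that push such cultures towards mineralisation.

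Values are log2 expression as deposited, so that a difference of 1 is a change of 2-fold. Of 22180 genes, 14911 were tested, namely those with at least 4 of the 52 arrays above 4.05, the median of the whole table. Array medians ran from 3.97 to 4.15, and correlations between the 8 vehicle arrays from 0.943 to 0.995. The day-4 array of pool 12 had the lowest mean correlation with its group (0.957, against 0.971 to 0.976 for the other day-4 arrays and 0.988 to 0.990 at day 1). All 7 stromal markers and all 6 macrophage markers lay above 4.05 on at least 1 of the 8 arrays. Summed as linear signal (2 to the power of the log2 value), the macrophage markers ran from 10372 to 11920 at day 1 and from 10996 to 14172 at day 4. The 3 T cell markers summed to between 44 and 71 at day 1, and at day 4 to between 41 and 539. For the 6 neutrophil markers the sums were 1464 to 2058 and 1258 to 3431. In such mixed RNA, fewer cells of a type and less RNA per cell cannot be told apart. A probe set's level was never set against that of another gene.

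Between day 1 and day 4, 686 genes rose and 1236 fell. These were 4.6% and 8.29% of the genes tested (12.9% in either direction), by limma at an adjusted p under 0.05. Median differences were 0.515 for genes that rose and -0.462 for genes that fell, while the median of all genes tested was 0.01. Large changes were mostly rises: 121 genes rose by at least 1 and 72 fell by at least 1, and 19 rose by at least 2 against 2 that fell as far. The 4 day-4 values lay wholly above the day-1 values in 1057 genes (7.09%) and wholly below them in 1470 (9.86%, 16.9% for both directions). Among the genes called, this held for 482 that rose and 947 that fell. With the pool as a replicate block, 1069 rose and 1536 fell. Cyclic loess between arrays made the split nearly even, with 909 higher and 974 lower (48.3% higher, against 35.7%). A fit of only the 8 vehicle arrays, which no longer borrows the spread of the other 11 groups, called 210 and 358. Leaving out pool 19 gave 216 and 569, and leaving out pool 20 gave 248 and 586.

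**Figure D1:**
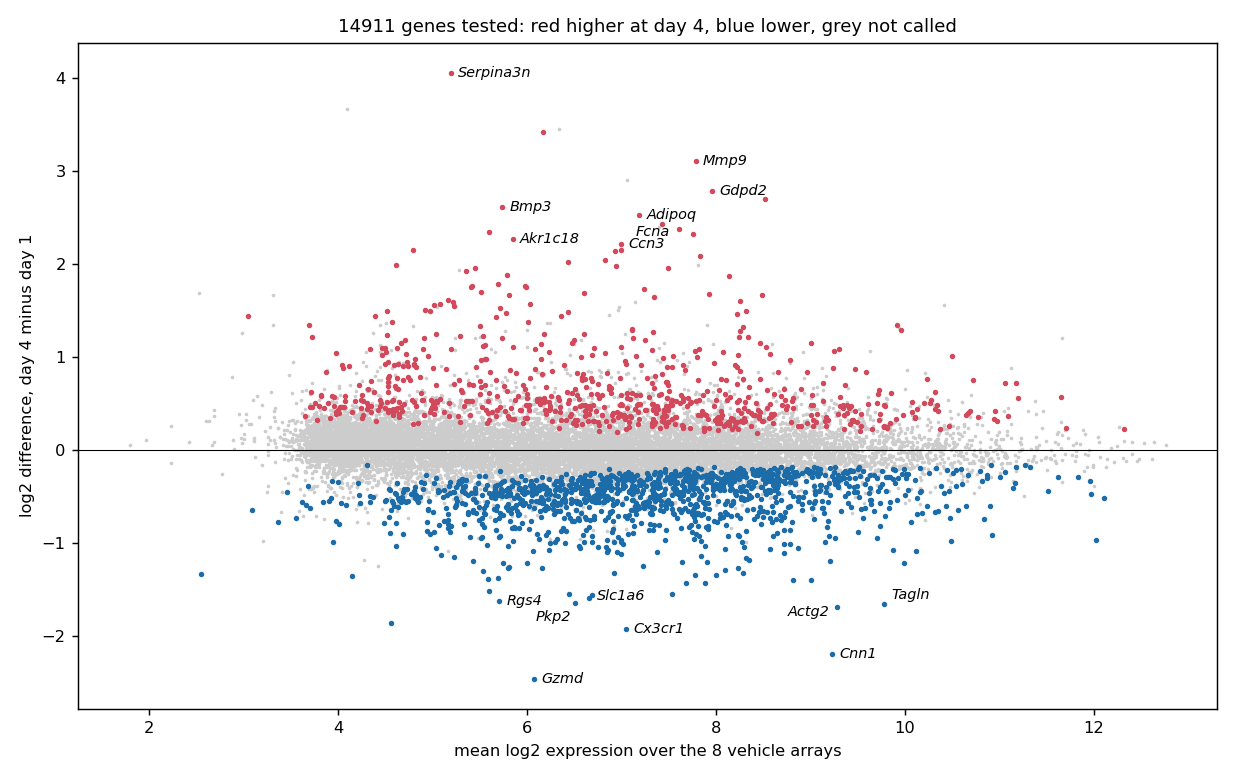
Each point is 1 of the 14911 genes tested, with the mean log2 expression over the 8 vehicle arrays on the x axis and the log2 difference, day 4 minus day 1, on the y axis. Red points rose (686), blue points fell (1236) and grey points did not pass limma's test; the 8 largest rises and 8 largest falls that held without each pool are named.

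Values of a group are listed below in the order of pools 12, 15, 19 and 20. A mean carries its SD over 4 arrays, and a difference carries limma's SE, for which the spread was pooled over all 13 groups. Of the genes that moved the same way in 4 of 4 pools and held without each pool in turn, the largest rise was that of Serpina3n, a serine protease inhibitor of the acute phase. It read 2.55, 3.98, 3.15 and 2.97 at day 1 and 9.77, 8.77, 5.65 and 4.67 at day 4. The day-1 values all lay under the table median, near background, and the day-4 values spread over several log2 units, with pools 12 and 15 far above pools 19 and 20. The difference was 4.05 ± 0.86 (SE, limma adjusted p = 0.00127; 0.064 with only the 8 arrays).

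Mmp9, a matrix protease that osteoclasts secrete, read 6.19, 6.15, 6.31 and 6.29 at day 1 and 7.10, 9.40, 10.30 and 10.53 at day 4. Here pool 12 was the low one, and no day-4 value overlapped the tightly grouped day-1 values. Mmp9 rose by 3.10 ± 0.60 (adjusted p = 0.00048), from a day-1 mean of 6.23 that was below the naive mean of 6.94. Next came Gdpd2, a glycerophosphodiester phosphodiesterase, with 7.50, 7.52, 5.39 and 5.85 followed by 8.89, 9.78, 9.45 and 9.27 (2.78 ± 0.54, adjusted p = 0.000474). Its pools stood apart at day 1 and close together at day 4.

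The remaining large rises held matrix and signalling genes. Bmp3, a BMP family member that opposes other BMPs in bone, rose by 2.61 ± 0.40 (adjusted p = 1.88e-05), and Ccn3, a matricellular protein, by 2.21 ± 0.32 (8.83e-06). Efemp1, which encodes fibulin-3, rose by 2.09 ± 0.22 (2.79e-08), and Dcn, which encodes the collagen-binding proteoglycan decorin, by 1.96 ± 0.28 (5.95e-06). Fcna (ficolin A, 2.38 ± 0.59), Akr1c18 (a hydroxysteroid dehydrogenase, 2.26 ± 0.45), Entpd3 (an ectonucleotidase, 2.15 ± 0.28), Ndufa4l2 (1.95 ± 0.33) and Vit (vitrin, a matrix protein, 1.78 ± 0.31) also rose. For Bmp3 and Entpd3 at least 2 of the day-1 arrays lay under 4.05, so that the size is uncertain. With only the 8 arrays and the replicate block the adjusted p was 0.0765 for Ndufa4l2 and 0.067 for Vit.

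Gzmd, a granzyme, showed the largest fall. It read 6.77, 6.19, 8.07 and 8.18 at day 1 and 4.00, 4.88, 5.11 and 5.37 at day 4 (-2.46 ± 0.47, adjusted p = 0.000351). The groups did not overlap, and the naive mean was 6.97. Granzymes D to G are near-identical neighbours, so probe sets of this family may share signal. Other large falls outside the contractile genes were those of Pkp2, a desmosome plaque protein (-1.64 ± 0.17), Rgs4, a regulator of G protein signalling (-1.63 ± 0.28), Slc1a6, a glutamate transporter (-1.59 ± 0.23), Avpr1a, a vasopressin receptor (-1.56 ± 0.20), and Itga5, the α chain of a fibronectin receptor (-1.40 ± 0.22). Of these, Slc1a6 missed the threshold with only the 8 arrays (adjusted p = 0.0529).

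The groups of genes that bear on bone are described first. Of 29 osteoclast genes tested, 8 rose (27.6%, against 4.6% of all genes) and 3 fell (10.3%, against 8.29%), with a median difference of 0.27. Dcstamp, needed for fusion of osteoclast precursors, read 4.16, 4.18, 3.92 and 4.43 at day 1 and 4.96, 5.42, 6.02 and 6.30 at day 4 (1.501 ± 0.18, adjusted p = 4.02e-07). Its partner Ocstamp read 4.39, 4.49, 4.38 and 4.41 and then 5.17, 5.83, 6.31 and 6.71 (1.59 ± 0.23, adjusted p = 6.05e-06). For both, every day-4 value exceeded every day-1 value, pool 12 was the lowest and pool 20 the highest. Both had dipped at day 1, from naive means of 4.99 (Dcstamp) and 4.86 (Ocstamp) to 4.17 and 4.42. In pool 12, Dcstamp at day 4 was below its naive value of 5.3.

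Ctsk, the collagen-degrading protease of the resorption pit, read 7.71, 7.77, 7.31 and 7.49 at day 1 and 9.16, 8.77, 8.94 and 9.38 at day 4 (1.495 ± 0.28, adjusted p = 0.000351). Acp5, tartrate-resistant acid phosphatase, read 7.91, 7.95, 7.42 and 7.22 and then 8.43, 9.09, 9.01 and 9.24 (1.32 ± 0.26, adjusted p = 0.000549). Neither gene's groups overlapped. Car2, the carbonic anhydrase that supplies protons, rose by 1.43 ± 0.25 (adjusted p = 0.000125), and Oscar, an activating receptor, by 1.21 ± 0.22 (0.000189; 0.0675 with only the 8 arrays), from day-1 values near background.

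Nfatc1, the transcription factor of osteoclast formation, fell by 0.33 on the log2 scale (adjusted p = 0.00419), from 8.50, 8.16, 8.40 and 8.38 to 7.88, 7.80, 8.20 and 8.23. That call ended without pool 12 (adjusted p = 0.141) and with only the 8 arrays (0.152). Atp6v0d2, an osteoclast proton pump subunit, differed by 0.83 ± 0.72 (adjusted p = 0.51), with 10.44 in pool 12 at day 4 against 7.99 to 8.54 in the other pools. Calcr, the calcitonin receptor of mature osteoclasts, did not enter the test; it read 2.68 to 3.08 at day 1 and 3.24, 4.17, 4.16 and 4.74 at day 4. The count of risen osteoclast genes ran from 5 to 10 over all alternatives. Summed as linear signal, the 8 osteoclast markers ran from 653 to 1016 at day 1 and from 2169 to 3347 at day 4.

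Of the signals that drive osteoclasts, 19 genes were tested, of which 1 rose and 1 fell. These are shares of 5.26% each, near the 4.6% and 8.29% of all genes. Il34, which encodes a second ligand of the CSF1 receptor, rose by 0.82 ± 0.24 (adjusted p = 0.0171), a call that ended without pool 19 (0.238), without pool 20 (0.189) and with only the 8 arrays (0.15). Tnfsf11, which encodes RANKL, read 6.49, 6.37, 5.79 and 5.66 at day 1 and 6.16, 6.33, 6.88 and 6.61 at day 4 (0.42 ± 0.25, adjusted p = 0.31). It was higher at day 4 in pools 19 and 20 and lower in pools 12 and 15. Its decoy receptor Tnfrsf11b differed by -0.84 ± 0.32 (adjusted p = 0.0703), and Csf1 by -0.38 ± 0.14 (0.0542; 0.0376 with the replicate block).

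The vacuolar proton pump acidifies both lysosomes and the resorption pit. Of 30 genes of the pump and of other lysosome proteins tested, 10 rose (33.3%, against 4.6% of all genes) and none fell. Of the 30 differences 28 were above 0, with a median of 0.33. The changes were small and even: Atp6v1d (0.34 ± 0.08, adjusted p = 0.00495), Atp6v0d1 (0.35 ± 0.09, 0.00612) and Atp6v1e1 (0.38 ± 0.10, 0.00647) are pump subunits, and Npc2 (0.31 ± 0.09, 0.0117) carries cholesterol out of lysosomes. Lamp2, a lysosome membrane protein, rose by 0.25 ± 0.07 (0.0121), from 10.38, 10.47, 10.25 and 10.27 to 10.67, 10.64, 10.54 and 10.53. With the replicate block 18 rose, and 17 after cyclic loess, but none passed in a fit of only the 8 arrays. In that fit the adjusted p was 0.113 for Atp6v1d, 0.112 for Atp6v0d1, 0.142 for Atp6v1e1, 0.19 for Npc2 and 0.107 for Lamp2. Without pool 12, Atp6v0d1 (0.089) and Lamp2 (0.0587) missed the threshold, as did Npc2 and Lamp2 without pool 19 (0.0951 and 0.105) and without pool 20 (0.0749 and 0.0719).

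Genes of the osteoblast rose in part. Of 34 tested, 7 rose (20.6%, against 4.6% of all genes) and none fell (8.29% of all genes), with a median of 0.23. Ifitm5, a membrane protein of mineralising osteoblasts, read 4.41, 4.56, 4.36 and 4.24 at day 1 and 5.07, 7.07, 5.85 and 7.28 at day 4 (1.93 ± 0.31, adjusted p = 4.73e-05; 0.0503 with only the 8 arrays). Bmp3 read 4.66, 5.06, 4.04 and 3.96 and then 5.72, 7.47, 7.03 and 7.92. In both genes the groups did not overlap and pool 12 was the lowest at day 4. Dlx3, a homeobox factor of osteoblasts, rose by 1.08 ± 0.23 (adjusted p = 0.00118; 0.0516 with only the 8 arrays), and Sgms2, a sphingomyelin synthase with a role in mineralisation, by 0.97 ± 0.21 (0.00159; 0.0583 without pool 20, 0.0529 with only the 8 arrays). Without pool 12, 11 of the 34 rose.

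The best known osteoblast genes did not pass. Alpl, alkaline phosphatase, read 10.53, 10.60, 10.30 and 10.51 at day 1 and 9.39, 10.40, 10.96 and 11.17 at day 4 (-0.01 ± 0.27, adjusted p = 0.991). It was lower at day 4 in pools 12 and 15 and higher in pools 19 and 20. Sp7, which encodes osterix, went the same way by pool, with 8.51, 8.61, 8.13 and 8.60 followed by 6.67, 8.47, 8.67 and 9.16 (-0.22 ± 0.44, adjusted p = 0.807). Col1a1, the main collagen chain of bone, differed by -0.39 ± 0.18 (adjusted p = 0.162), and Bglap, osteocalcin, by 0.51 ± 0.23 (0.153) with readings between 3.40 and 4.54.

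Ibsp, bone sialoprotein, was higher at day 4 in 4 of 4 pools. It read 11.12, 11.85, 10.54 and 10.71 at day 1 and 11.83, 12.40, 12.27 and 12.55 at day 4, with an overlap of the groups only between pool 15 at day 1 and pool 12 at day 4. The difference of 1.21 ± 0.62 did not pass (adjusted p = 0.21), and did with the replicate block (0.00768).

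Of 15 osteocyte and mineral genes tested, 5 rose (33.3%, against 4.6% of all genes) and none fell, with a median of 0.46. Dmp1, a phosphoprotein of osteocytes, read 4.25, 5.40, 3.98 and 4.24 at day 1 and 7.54, 9.76, 6.57 and 7.64 at day 4. Every day-4 value exceeded every day-1 value, and pool 15 was the highest at both times. Dmp1 rose by 3.42 ± 0.92 (adjusted p = 0.0101), a call that ended without pool 12 (0.0537) and without pool 20 (0.0716).

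Gja1, which encodes the gap junction protein connexin 43, read 10.02, 10.18, 9.55 and 9.65 and then 9.85, 10.62, 11 and 10.98 (0.76 ± 0.21, adjusted p = 0.0107), higher in 3 of 4 pools. Its call ended without pool 19 (0.197), without pool 20 (0.211) and with only the 8 arrays (0.125). Galnt3, which protects the phosphate hormone FGF23 from cleavage, rose by 1.10 ± 0.38 (0.0482). That call ended without pools 12, 19 or 20 (0.0731, 0.204 and 0.295), after cyclic loess (0.0504), without the filter (0.0658) and with only the 8 arrays (0.115). Phex, a mineralisation endopeptidase, read 5.65, 5.82, 4.91 and 4.11 and then 4.56, 6.97, 6.60 and 7.48 (1.28 ± 0.49, adjusted p = 0.0753; 0.045 with the replicate block).

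**Figure D2:**
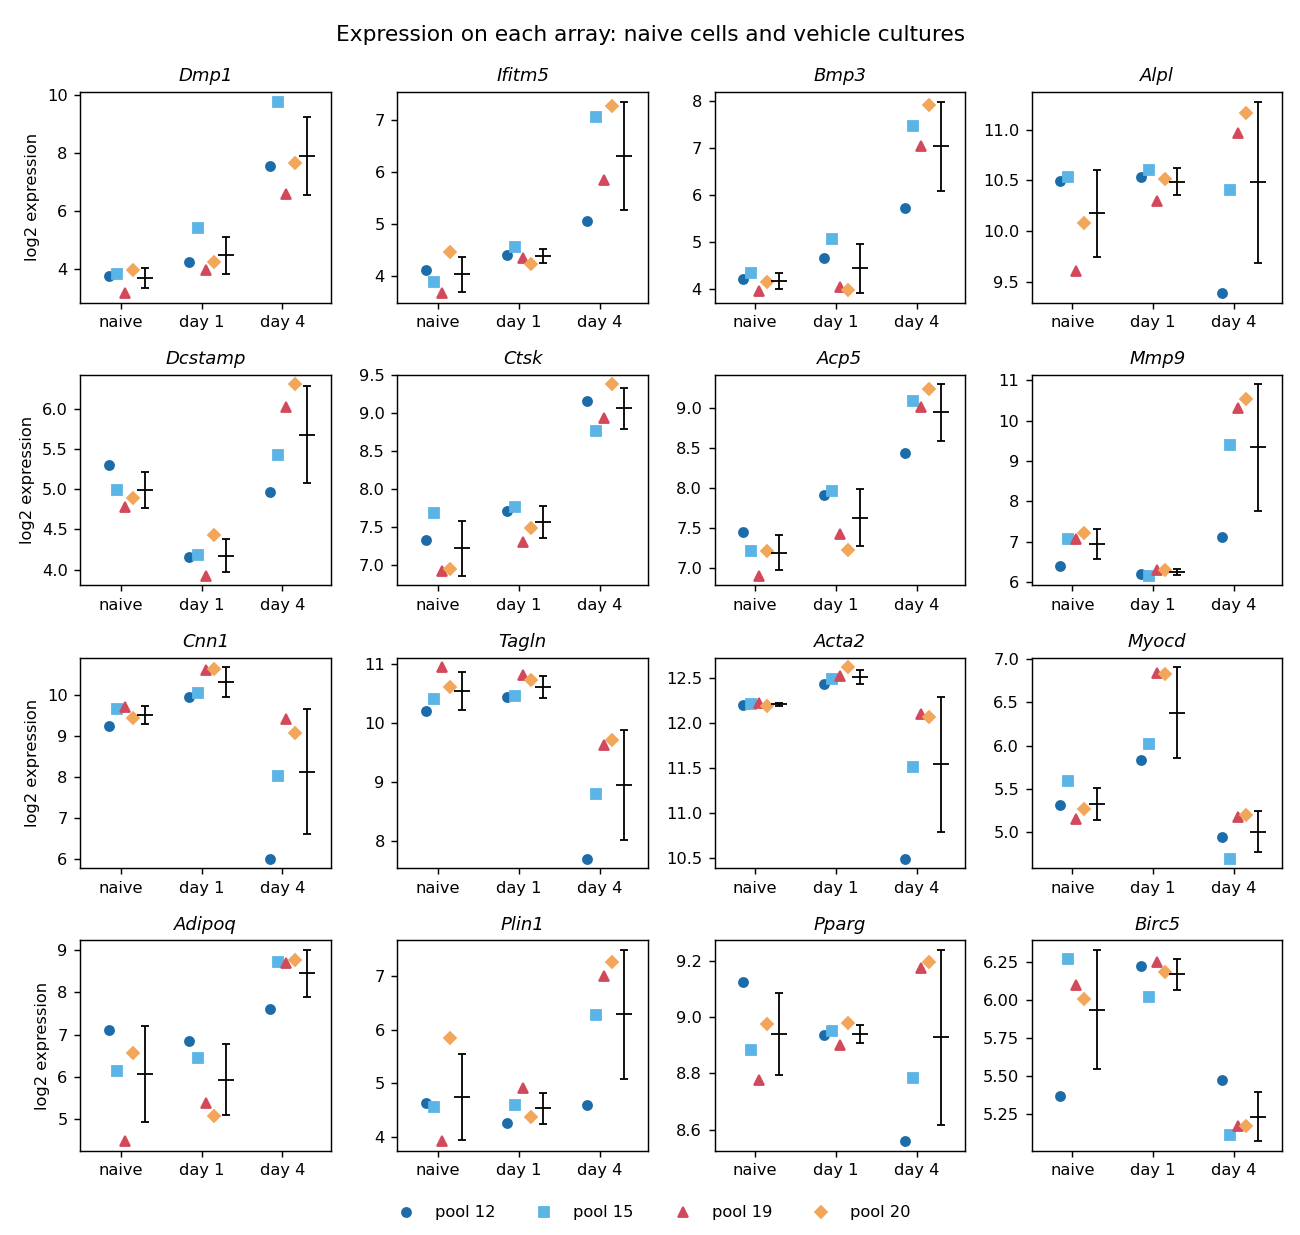
Log2 expression of 16 genes on each array of naive cells, vehicle day 1 and vehicle day 4, with 1 coloured symbol per pool and the mean ± SD (n = 4) in black. In Dcstamp, Ctsk and Mmp9 all 4 day-4 symbols lie above the day-1 symbols, in Cnn1, Tagln and Acta2 all lie below them, and in Alpl the pools go in both directions around a mean difference of -0.01.

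Contractile genes encode the actin stress fibres of smooth muscle cells and myofibroblasts. Of 34 tested, 24 fell and none rose, against 8.29% lower among all genes. All 34 differences were below 0, with a median of -0.67. Cnn1, calponin, read 9.95, 10.06, 10.63 and 10.65 at day 1 and 6.00, 8.02, 9.42 and 9.06 at day 4. The groups did not overlap, and pool 12 fell furthest. The difference was -2.19 ± 0.36 (adjusted p = 6.57e-05), or 0.0932 with only the 8 arrays.

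Tagln, transgelin, read 10.44, 10.45, 10.81 and 10.73 and then 7.70, 8.79, 9.62 and 9.70 (-1.66 ± 0.24, adjusted p = 1.19e-05). Acta2, smooth muscle actin, read 12.43, 12.48, 12.52 and 12.62 and then 10.49, 11.51, 12.10 and 12.06 (-0.97 ± 0.18, 0.000229). The order of the pools at day 4 was close to the same in these genes, lowest in pool 12, then pool 15, then pools 19 and 20 near each other. Myocd, the coactivator of smooth muscle genes, did not share it, with 5.84, 6.02, 6.84 and 6.82 followed by 4.94, 4.70, 5.18 and 5.20 (-1.38 ± 0.19, adjusted p = 4.71e-06).

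Pdlim7 (-1.12 ± 0.15), Nexn (-1.35 ± 0.20), Csrp1 (-0.63 ± 0.10) and Actg2 (-1.69 ± 0.29) bind or build actin filaments and fell as well, in 4 of 4 pools. Myh11, the smooth muscle myosin heavy chain, fell by 0.70 on the log2 scale (adjusted p = 0.0196), which ended without pool 12 (0.0833), pool 19 (0.0534) or pool 20 (0.0916) and with only the 8 arrays (0.118). The count of fallen contractile genes was 20 or 21 without any 1 pool, 4 with only the 8 arrays and 14 with those arrays and the replicate block. With only the 8 arrays the adjusted p was 0.0562 for Tagln, 0.113 for Acta2 and 0.0686 for Actg2. At day 4 the T cell markers stood highest in the pools where this fall was deepest, with sums of 539 at most and 41 at least. Some markers of neutrophils and basophils, such as Ly6g and Mcpt8, also stood highest in those pools. The part of any of these cells in the fall was not tested.

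Serum response factor binds a CArG box, a run of A and T between CC and GG, in many contractile promoters. RefSeq promoters (250 bases before to 50 after the start, GRCm38.p6) were found for 30 of the 36 contractile genes listed, and 9 of these 30 hold a CArG box on either strand, against 1.81% of 27025 genes with a promoter (1.63% of 32851 promoters). Of the fallen contractile genes, 4 of 19 with a promoter hold 1, a smaller share than the 9 of 30. The other genes with a match, Myl6, Fhl1, Fhl2, Acta1 and Actc1, were not called lower or not tested. The box was thus not more frequent in the contractile genes that fell. A match shows only that the letters are there. These 4 stretches are shown because they carry that motif, in capitals, in the fallen genes with the smallest adjusted p among those with a match, 5′ to 3′ on the gene's strand:
Myl9 (chr2:156775283-156775332, + strand): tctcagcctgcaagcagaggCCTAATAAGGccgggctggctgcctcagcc
Cnn2 (chr10:79988524-79988573, + strand): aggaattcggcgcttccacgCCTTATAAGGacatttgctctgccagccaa
Vcl (chr14:20929151-20929200, + strand): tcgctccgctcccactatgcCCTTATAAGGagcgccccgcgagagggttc
Ldb3 (chr14:34588687-34588736, - strand): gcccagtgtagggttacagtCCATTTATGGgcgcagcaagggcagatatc

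The genes behind these stretches fell by 0.92 (Myl9, myosin light chain), 0.61 (Cnn2, a second calponin), 0.65 (Vcl, vinculin of focal adhesions) and 0.47 (Ldb3, a Z-disc protein) on the log2 scale. Srf itself fell, from 8.18, 8.21, 8.52 and 8.64 to 7.66, 7.77, 7.81 and 7.95 (-0.59 ± 0.10, adjusted p = 8.57e-05), with no overlap.

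Targets of YAP and of serum response factor, which answer to tension on the cell, fell beside the contractile genes. Of 20 tested, 14 fell (70.0%, against 8.29% of all genes) and none rose, with a median of -0.61. Ajuba, a LIM protein of adhesion sites, read 7.06, 7.00, 7.47 and 7.56 and then 5.66, 6.07, 6.52 and 6.64 (-1.05 ± 0.14, adjusted p = 4.8e-06). Ccn2, connective tissue growth factor, read 10.34, 10.51, 10.69 and 10.88 and then 8.57, 9.62, 9.78 and 9.56 (-1.22 ± 0.27, 0.00168; -0.70 with the mean of its probe sets). Groups did not overlap in either gene. Axl, a receptor tyrosine kinase, fell by 0.82 (4.98e-06), and Vgll3, a cofactor of TEAD factors, by 1.19 (3.28e-05; 0.0593 with only the 8 arrays). That fit called 6 of the list lower.

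Genes of the cell cycle fell. Of 43 tested, 28 fell (65.1%, against 8.29% of all genes) and none rose, 42 differences were below 0 and the median was -0.53. Anln, anillin of the cleavage furrow, read 8.61, 8.39, 8.87 and 8.66 at day 1 and 7.44, 7.42, 7.61 and 7.78 at day 4 (-1.07 ± 0.13, adjusted p = 4.02e-07). Foxm1, a transcription factor of mitotic genes, read 7.02, 6.91, 7.17 and 7.09 and then 6.30, 6.02, 6.16 and 6.28 (-0.86 ± 0.13, 1.57e-05). The arrays of a group lay close together in both genes, and day 4 was below day 1 in every pool.

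Cenpe, a kinetochore motor, fell by 0.87 ± 0.16 (0.000191), Birc5, survivin, by 0.94 ± 0.18 (0.000406), and Prc1, of the central spindle, by 0.79 ± 0.14 (0.00025). Mki67, the proliferation marker Ki-67, fell by 0.56 ± 0.17 (0.0183), which ended without pool 19 (0.272), without pool 20 (0.121) and with only the 8 arrays (0.0621). Cdkn1a, the cell cycle inhibitor p21, rose by 0.33 ± 0.07 (0.00259), from 10.84, 10.70, 10.72 and 10.87 to 10.94, 11.25, 11.12 and 11.12. Its call ended with only the 8 arrays (0.0702) and without pool 19 (0.0501). Without pool 19 or without pool 20, 15 of the 43 fell, and with only the 8 arrays 25 did.

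Many promoters of mitotic genes hold a cell cycle homology region (CHR, TTTGAA or its reverse TTCAAA). It was found in 18 of 37 cell cycle genes with a promoter (48.6%), against 20.2% of all genes (17.9% of promoters), and in 16 of the 22 fallen ones. Anln, Cenpf, Plk1, Kif23, Cenpa, Aurka, Bub1b and Hmmr hold it only after the start. Shown, with the CHR in capitals, are the fallen genes with the smallest adjusted p among those with a CHR wholly before the start:
Prc1 (chr7:80294426-80294471, + strand): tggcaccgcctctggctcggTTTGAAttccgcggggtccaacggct
Cdc20 (chr4:118437344-118437381, - strand): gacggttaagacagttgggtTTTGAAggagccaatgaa
Ect2 (chr3:27153967-27154012, - strand): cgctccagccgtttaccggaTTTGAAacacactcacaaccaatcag
Top2a (chr11:99024190-99024232, - strand): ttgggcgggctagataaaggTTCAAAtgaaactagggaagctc

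Beside Prc1, these were Cdc20, the activator of the anaphase-promoting complex (-0.71), Ect2, which places the cleavage furrow (-0.67), and Top2a, topoisomerase IIα (-0.60). For the lysosome genes, the E-box CACGTG was looked for in the same way. It was found in 11 of 25 with a promoter (44.0%), against 8.09% of all genes (7.15% of promoters), and in 4 of the 8 that rose.

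**Figure D3:**
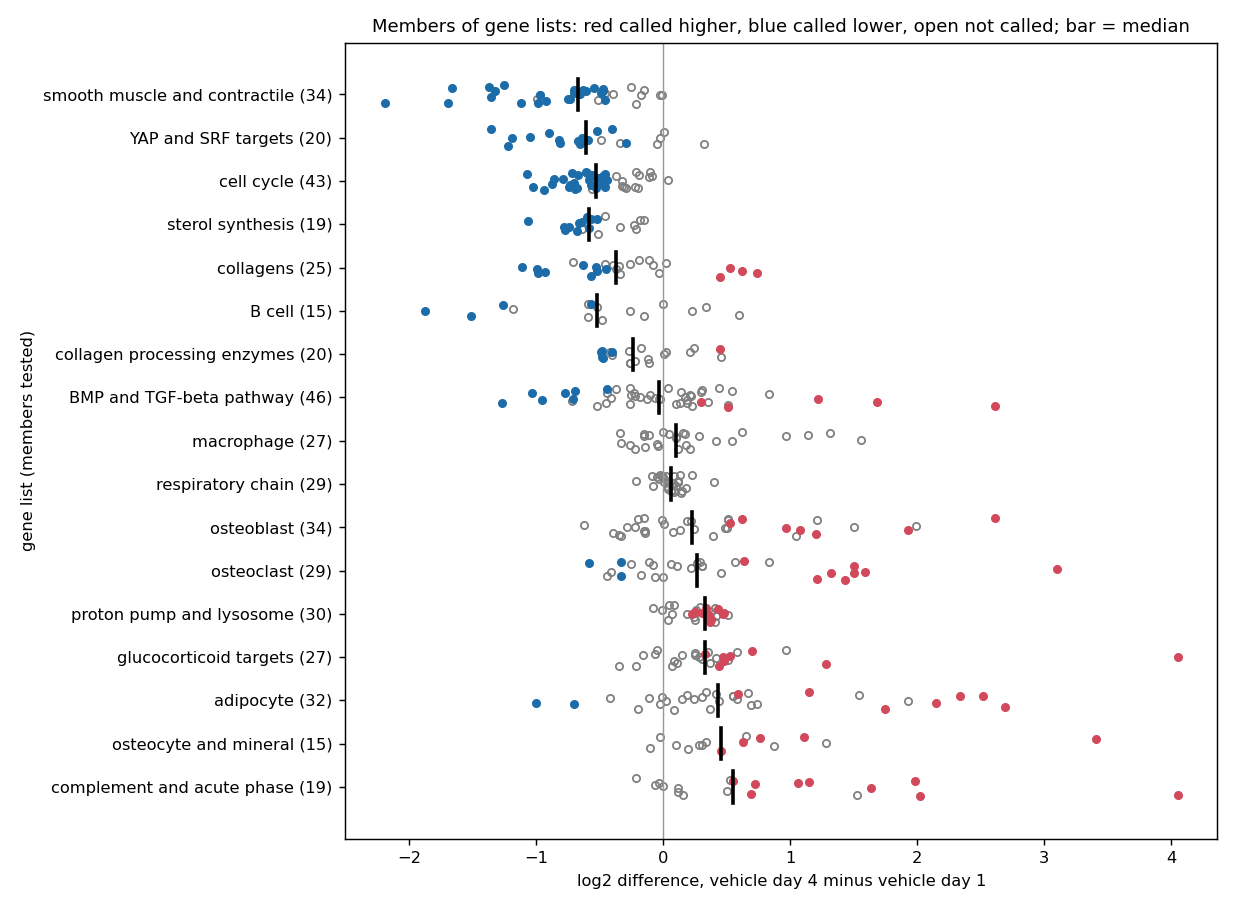
Each point is 1 tested member of a gene list, with its log2 difference, day 4 minus day 1, on the x axis. Red members rose, blue members fell, open members did not pass limma's test, and the black bar is the list's median. Among the lists drawn, which are not all those described, it runs from -0.67 for contractile genes to 0.55 for complement and acute phase genes.

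Fat cell genes rose in part, without Pparg. Of 32 adipocyte genes tested, 7 rose (21.9%, against 4.6% of all genes) and 2 fell (6.25%, against 8.29%), with a median of 0.43. Adipoq, the hormone adiponectin, read 6.84, 6.43, 5.38 and 5.06 at day 1 and 7.61, 8.71, 8.71 and 8.76 at day 4 (2.52 ± 0.33, adjusted p = 2.26e-06). The groups did not overlap, and the rise was smallest in pool 12. With only the 8 arrays and the replicate block the adjusted p was 0.0516. Plin1, the coat protein of lipid droplets, read 4.26, 4.59, 4.92 and 4.38 and then 4.59, 6.28, 7.00 and 7.28 (1.75 ± 0.42, 0.00414), with pool 12 at its day-1 level. Its call ended without pool 19 (0.0586), without pool 20 (0.0702) and with only the 8 arrays (0.0892).

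Car3, carbonic anhydrase 3, read 6.66, 7.18, 7.60 and 7.26 and then 6.57, 10.22, 11.15 and 11.52 (2.69 ± 0.63, adjusted p = 0.0032). It was far higher at day 4 in 3 pools and not in pool 12. The call ended without pool 15 (0.057), without pool 19 (0.0761) and with only the 8 arrays (0.135). Gpd1, a glycerol phosphate dehydrogenase, rose by 2.15 ± 0.51 (0.00382; 0.0649 without pool 15), or by 1.22 with the mean of its probe sets. Plin4, another droplet coat protein, fell by 1.00 ± 0.26 (0.00662), from 6.33, 6.43, 7.08 and 7.15 to 5.10, 5.69, 6.08 and 6.10; this ended without pool 20 (0.0524) and with only the 8 arrays (0.0711).

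Pparg, the receptor that drives fat cell formation, read 8.94, 8.95, 8.90 and 8.98 and then 8.56, 8.79, 9.17 and 9.20 (-0.01 ± 0.14, adjusted p = 0.969). Cebpa, its partner, differed by 0.02 ± 0.15 (0.963). Fabp4, a fatty acid carrier, was higher in 4 of 4 pools (0.56 ± 0.20, 0.0569; 0.00379 with the replicate block). With that block 13 adipocyte genes rose and 3 fell, and without pool 15 or without pool 19, 2 rose.

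Sterol synthesis genes, which the factor SREBP2 controls, fell. Of 19 tested, 11 fell (57.9%, against 8.29% of all genes) and none rose. All 19 differences were below 0, and the median was -0.58. Cyp51, lanosterol demethylase, read 9.33, 9.49, 9.38 and 9.39 at day 1 and 7.86, 8.55, 8.40 and 8.55 at day 4 (-1.06 ± 0.20, adjusted p = 0.000303). Hmgcs1, HMG-CoA synthase, fell by 0.78 ± 0.15 (0.000374), Sqle, squalene epoxidase, by 0.74 ± 0.14 (0.00043), and Mvk, mevalonate kinase, by 0.64 ± 0.11 (0.000109). Srebf2, which encodes SREBP2, fell by 0.58 ± 0.10 (0.000115). These calls held in every alternative, in which 8 to 14 of the list fell. Mean levels at day 4 lay near those of naive cells: Cyp51 averaged 8.34 ± 0.33 (SD, n = 4) at day 4 and 8.50 in naive cells, against 9.40 ± 0.07 at day 1, and Mvk averaged 6.84 ± 0.24, 6.55 and 7.48 ± 0.04.

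Of 19 genes of fatty acid and triglyceride synthesis, Lpin1, a phosphatidate phosphatase, rose by 1.06 ± 0.27 (adjusted p = 0.00612; 0.0536 without pool 20), and Elovl6, a fatty acid elongase, fell by 0.75 ± 0.22 (0.0201), which ended without pool 12 (0.15), without pool 20 (0.0894) and with only the 8 arrays (0.051). That is 1 rise and 1 fall among 19 synthesis genes (5.26% each), near the 4.6% and 8.29% of all genes. Of 25 fatty acid oxidation genes, 1 rose (4.0%), Angptl4, an inhibitor of lipoprotein lipase (0.70, adjusted p = 0.00604). Its difference was 0.35 without pool 12 (0.243), and the call also ended without pool 15 (0.067) and with only the 8 arrays (0.222). Of 29 respiratory chain genes none passed limma's test, with or without the replicate block, and none had an unadjusted p under 0.05.

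Matrix genes went both ways. Of 25 collagens tested, 4 rose and 9 fell, with a median of -0.37. Both shares were above those of all genes (4.6% and 8.29%). Col4a1, a basement membrane chain, read 9.42, 9.11, 9.38 and 9.19 at day 1 and 7.30, 7.85, 8.85 and 8.67 at day 4 (-1.11 ± 0.21, adjusted p = 0.000408; 0.0807 with only the 8 arrays). Its partner Col4a2 read 8.88, 8.57, 8.86 and 8.79 and then 6.97, 7.33, 8.51 and 8.33 (-0.99 ± 0.22, 0.00198; 0.0525 without pool 12, 0.112 with only the 8 arrays). The groups did not overlap in either, and pool 12 was lowest at day 4. Col5a1, which sets the width of collagen fibrils, fell by 0.93 ± 0.22 (0.00333), which ended without pool 15 (0.0556), with the mean of its probe sets (-0.47, 0.0508) and with only the 8 arrays (0.12).

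Col22a1 (0.62 ± 0.13, adjusted p = 0.00138; 0.0599 with only the 8 arrays) and Col24a1 (0.53 ± 0.12, 0.00212), which osteoblasts express, rose, the latter from 4.34, 4.24, 4.39 and 4.29 to 4.88, 4.85, 4.83 and 4.83. The number of fallen collagens was 3 without pool 12 or without pool 15, and 0 with only the 8 arrays. After cyclic loess it was 5.

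Of 34 matrix proteins and proteoglycans, 5 rose (Efemp1, Dcn, Lum, Comp and Thbs4) and 5 fell. These were 14.7% each, against 4.6% and 8.29% of all genes. Dcn read 6.43, 6.83, 6.35 and 6.45 at day 1 and 7.33, 8.23, 8.89 and 9.44 at day 4, without overlap and with the highest values in pools 19 and 20. Lum, lumican, rose by 1.67 ± 0.33 (adjusted p = 0.000656; 0.054 with only the 8 arrays). Comp, cartilage oligomeric matrix protein, rose by 1.73 ± 0.35 (0.000763; 0.0551 without pool 19). Ltbp2, a latent TGF-β binding protein, fell by 0.71 ± 0.16 (0.00168; 0.0796 with only the 8 arrays and the replicate block).

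Of 20 enzymes that modify or cross-link collagen, 5 fell (25.0%, against 8.29% of all genes) and 1 rose (5.0%, against 4.6%). Serpinh1, the collagen chaperone HSP47, read 10.13, 10.20, 10.24 and 10.39 and then 9.23, 9.75, 10.01 and 10.02 (-0.49 ± 0.12, adjusted p = 0.00454; 0.131 with only the 8 arrays). Lox, lysyl oxidase, fell by 0.48 ± 0.14 (0.0161), a call that ended without pools 15, 19 or 20 (0.0597, 0.0767 and 0.0835) and with only the 8 arrays (0.0522). P4ha1, a prolyl hydroxylase that hypoxia induces, rose by 0.45 ± 0.11 (0.0048; 0.0614 without pool 12, 0.0577 without pool 20, 0.0559 with only the 8 arrays).

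Of 17 cartilage and tendon genes, 3 rose (17.6%, against 4.6% of all genes) and 4 fell (23.5%, against 8.29%). Col2a1, the collagen of cartilage, read 8.75, 8.56, 8.54 and 8.53 and then 6.63, 6.85, 7.97 and 7.22 (-1.43 ± 0.24, adjusted p = 8.65e-05). Tnmd, tenomodulin, fell by 1.15 ± 0.20 (0.000114; 0.0851 with only the 8 arrays). Among 27 matrix proteases and inhibitors 3 rose (11.1%) and 2 fell (7.41%, near the 8.29% of all genes). Adamts12 fell by 1.16 ± 0.26 (0.00169). Adamts15 rose by 1.52 ± 0.34 (0.00203) in 3 of 4 pools, from 5.93, 4.90, 4.57 and 4.40 to 5.39, 6.40, 7.11 and 7.00. Its call ended without pool 19 (0.0797), without pool 20 (0.1) and with only the 8 arrays (0.0842).

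Of 26 genes of marrow stromal niche cells, which support blood formation, 5 rose and 3 fell. These were 19.2% and 11.5%, against 4.6% and 8.29% of all genes. Lepr, the leptin receptor that marks these cells, read 8.03, 7.32, 5.39 and 5.65 at day 1 and 7.72, 8.94, 9.44 and 9.59 at day 4 (2.32 ± 0.54, adjusted p = 0.00318). It was higher in 3 of 4 pools, and the call ended without pool 19 (0.0781), without pool 20 (0.11) and with only the 8 arrays (0.0752). Grem1, a BMP antagonist, showed the same order, with 7.82, 7.36, 6.52 and 6.63 followed by 7.65, 8.87, 9.40 and 9.13 (1.68 ± 0.30, 0.000159; 0.0592 with only the 8 arrays). Nes, nestin, fell from 6.28, 5.94, 6.71 and 6.32 to 4.96, 4.94, 5.50 and 5.72 (-1.03 ± 0.18, 0.000104). Without pool 12, 10 of the 26 rose.

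Secreted signals and their antagonists changed on both sides. Of 46 BMP and TGF-β genes, 5 rose (10.9%, against 4.6% of all genes) and 7 fell (15.2%, against 8.29%). Tgfb2, a TGF-β ligand, fell from 8.60, 8.55, 9.20 and 9.14 to 6.95, 7.42, 8.06 and 7.97 (-1.27 ± 0.22, adjusted p = 9.86e-05), without overlap, and Tgfb3 by 0.95 ± 0.20 (0.00131; 0.147 with only the 8 arrays). Chrdl1, a BMP antagonist, rose by 1.22 ± 0.26 (0.00135) in 3 of 4 pools, which ended without pool 19 (0.0776), without pool 20 (0.0986) and with only the 8 arrays (0.108).

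Of 49 Wnt genes, 6 rose (12.2%, against 4.6% of all genes) and 3 fell (6.12%, against 8.29%). The secreted antagonists were divided: Sfrp4, Wif1, Frzb and Dkk1 rose. Sfrp1 (0.38), Sfrp2 (-0.21), Sfrp5 (0.04), Dkk2 (0.12), Dkk3 (-0.46), Sost (0.20) and Notum (0.23) were not called. Sfrp4 read 5.66, 5.34, 4.97 and 5.32 and then 7.44, 7.26, 6.08 and 6.00 (1.37 ± 0.28, adjusted p = 0.00101; 0.0599 with only the 8 arrays). Its day-4 values stood highest in pools 12 and 15. Wif1 read 5.24, 5.58, 4.75 and 4.97 and then 5.05, 6.83, 6.45 and 6.99 (1.20 ± 0.30, 0.00501), in 3 of 4 pools; this ended without pool 19 (0.107), without pool 20 (0.128) and with only the 8 arrays (0.118). Lef1, a transcription factor of the pathway, rose by 0.91 ± 0.17 (0.00042; 0.0661 with only the 8 arrays), and Fzd2, a receptor, fell by 0.94 ± 0.21 (0.00195; 0.149 with only the 8 arrays). With only the 8 arrays no Wnt gene passed limma's test.

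In the IGF system 2 of 18 genes rose (11.1%, against 4.6% of all genes) and 3 fell (16.7%, against 8.29%). Igfbp5, a binding protein abundant in bone, rose by 1.01 ± 0.29 (adjusted p = 0.0144), which ended without pool 19 (0.118) and without pool 20 (0.131). Igf1r, the receptor, fell by 0.62 ± 0.15 (0.00308; 0.0877 with only the 8 arrays), while Igf1 differed by 0.17 ± 0.18 (0.597). C1qtnf3, a secreted C1q/TNF protein, read 6.09, 7.32, 4.91 and 5.12 and then 6.64, 7.48, 8.44 and 9.41 (2.14 ± 0.56, 0.00777). The difference was 1.42 without pool 20, and the call ended without pool 19 (0.154), without pool 20 (0.211) and with only the 8 arrays (0.107).

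Of the 43 lists, complement and acute phase genes had the largest share of members that rose, 9 of 19 (47.4%, against 4.6% of all genes), and none fell. Of these, 15 differences were above 0, and the median was 0.55. C4b, complement C4, read 6.53, 6.82, 5.29 and 5.17 at day 1 and 8.75, 8.25, 7.73 and 6.99 at day 4 (1.98 ± 0.37, adjusted p = 0.00029; 0.0549 with only the 8 arrays). Serping1, the inhibitor of C1, read 10.98, 11.04, 10.57 and 10.66 and then 11.43, 11.47, 11.63 and 11.60 (0.72 ± 0.15, 0.00123; 0.0505 with only the 8 arrays and the replicate block). The groups did not overlap in either gene. Steap4, a metalloreductase, rose by 2.02 ± 0.46 (0.0024), which ended without pool 19 (0.0633), without pool 20 (0.0964) and with only the 8 arrays (0.0887). Cp, ceruloplasmin, rose by 1.06 ± 0.25 (0.00355; 0.055 without pool 20), while Lcn2, lipocalin 2, differed by -0.21 ± 0.36 (0.764). Between 4 and 10 of the list rose in the alternatives.

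Dexamethasone was present at both times. Of 27 targets of the glucocorticoid receptor, 8 rose (29.6%, against 4.6% of all genes) and none fell, with a median of 0.33. Mt2, a metallothionein, read 9.23, 9.93, 9.04 and 9.05 and then 11.44, 11.28, 9.83 and 9.82 (1.28 ± 0.25, adjusted p = 0.000504; 0.109 with only the 8 arrays), and Mt1 rose by 0.48 ± 0.12 (0.00365; 0.0571 without pool 15, 0.0874 with only the 8 arrays). In Mt2, pools 12 and 15 were high at day 4. The textbook targets Fkbp5 (0.09 ± 0.21, 0.837) and Tsc22d3 (0.35 ± 0.15, 0.118; 0.0336 with the replicate block) did not pass. With only the 8 arrays 1 target rose.

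Of 24 glycolysis and hypoxia genes, 4 rose (16.7%, against 4.6% of all genes) and none fell. Bnip3, a mitophagy receptor, read 5.91, 6.02, 6.17 and 6.18 and then 8.10, 7.14, 6.40 and 6.62 (0.99 ± 0.28, adjusted p = 0.0125), and Ndrg1 rose by 0.89 ± 0.20 (0.00229; 0.0969 with only the 8 arrays). Ndufa4l2, which hypoxia induces, read 3.90, 4.50, 4.64 and 4.84 and then 7.65, 6.29, 5.60 and 6.14. In each, the highest day-4 value was that of pool 12. Without that pool the difference was 0.595 for Bnip3 and 0.58 for Ndrg1. The call of Bnip3 ended without pool 12 (0.0771), without pool 15 (0.11) and with only the 8 arrays (0.113); with only those arrays no gene of the list passed, and without pool 12 1 did.

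Genes of immune cells were read at both times, and in several of them the pools differed. Of 27 macrophage genes, 0 passed limma's test, against 12.9% of all genes in either direction. Of these 27, 3 had an unadjusted p under 0.05 and 3 passed with the replicate block, and the median was 0.10. Adgre1, which encodes the macrophage marker F4/80, read 10.51, 10.39, 10.44 and 10.43 at day 1 and 10.77, 10.49, 10.34 and 10.36 at day 4 (0.05, adjusted p = 0.914). Lyve1, a receptor of tissue macrophages, was higher in 4 of 4 pools, with 9.78, 10.51, 9.20 and 9.05 followed by 11.03, 11.93, 11.01 and 10.80 (1.56 ± 0.75, 0.178; 0.0314 with the replicate block, 0.0237 without pool 15 and 0.0485 with only the 8 arrays). Cd163, the haemoglobin scavenger receptor, differed by 0.97 ± 0.39 (0.097; 0.0321 with the block). Mean Lyve1 had been 5.12 in naive cells.

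Of 20 monocyte and dendritic cell genes 1 rose and 2 fell, near the 4.6% and 8.29% of all genes. Cx3cr1, the fractalkine receptor of monocytes, read 7.79, 7.68, 8.31 and 8.28 at day 1 and 4.84, 5.97, 6.77 and 6.75 at day 4 (-1.93 ± 0.36, adjusted p = 0.000278). The groups did not overlap, and the call held in every alternative. Clec10a, a lectin of dendritic cells and macrophages, rose from 7.76, 7.54, 6.70 and 6.80 to 10.11, 9.68, 8.21 and 8.28 (1.87 ± 0.56, 0.0209), which ended without pool 19 (0.109), without pool 20 (0.0885) and with only the 8 arrays (0.0592). Of the chemokines, Cxcl13, which attracts B cells, rose by 1.76 ± 0.56 (0.0285), a call that ended without pools 15, 19 or 20 (0.163, 0.191 and 0.16).

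Genes of B cells fell in part: 4 of 15 fell (26.7%, against 8.29% of all genes) and none rose, with a median of -0.52. Ms4a1, which encodes CD20, read 6.84, 5.55, 4.73 and 4.86 and then 4.22, 3.46, 3.62 and 3.22 (-1.87 ± 0.45, adjusted p = 0.0037; 0.0602 without pool 15, 0.0537 with only the 8 arrays). At day 1 pool 12 was the highest, and at day 4 pools 15, 19 and 20 lay under 4.05, so that the size is uncertain. Cd79a, part of the B cell receptor, fell by 1.26 ± 0.36 (0.0157), which ended without pool 15 (0.133), without pool 20 (0.0864) and with only the 8 arrays (0.0503). Summed B cell markers ran from 179 to 417 at day 1 and from 97 to 142 at day 4.

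The T cell genes Cd3e and Cd3g were higher at day 4 in pools 12 and 15. Cd3e, a chain of the T cell receptor complex, read 4.87, 4.88, 4.50 and 4.29 at day 1 and 7.83, 6.74, 4.56 and 4.21 at day 4 (1.20, adjusted p = 0.215). Cd3g read 4.48, 4.69, 3.11 and 3.37 and then 7.98, 5.62, 3.15 and 3.13 (1.06, 0.454). Pools 12 and 15 were high at day 4, and pools 19 and 20 stayed at their day-1 level. Among T and NK cell genes, 0 of 14 were called by limma, against 12.9% of all genes in either direction. Of these 14, 3 had an unadjusted p under 0.05 and 1 passed with the replicate block. All 14 differences were above 0, with a median of 0.71. The NK cell markers Klrb1c and Klrd1 lay under 4.05 on all 8 arrays. Ncr1, another NK cell marker, read 3.57, 3.71, 3.64 and 3.61 at day 1 and 4.93, 3.47, 3.59 and 3.58 at day 4. It was thus above 4.05 only in pool 12 at day 4.

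The same pools differed elsewhere at day 4. Col1a1 read 12.14, 12.11, 12.24 and 12.29 at day 1 and 11.11, 11.69, 12.19 and 12.25 at day 4, so that it was lower in pools 12 and 15 and hardly moved in pools 19 and 20. At day 4 Tagln, Cnn1, Alpl, Sp7, Plin1 and Car3 were lowest in pool 12. Car3 read 6.57 there, against 10.22, 11.15 and 11.52 in the other pools, and Plin1 4.59 against 6.28, 7.00 and 7.28. Serpina3n and Mt2 were higher in pools 12 and 15 than in the others at day 4. The pattern was not particular to T cells. At day 4 the neutrophil genes Ly6g (6.96, 6.30, 4.04 and 4.23) and S100a9 (8.96, 8.71, 7.00 and 7.38) were also higher in pools 12 and 15. So was Mcpt8 of basophils (7.84, 7.45, 4.77 and 4.63). The dendritic cell markers were divided: Itgax was higher there (7.64, 5.31, 3.93 and 3.95). Cd209a (8.65, 9.17, 9.30 and 9.45) and Flt3 (3.94, 4.08, 4.08 and 3.9) were not. Whether any of these cells or another difference between the pools had a part in these values was not tested. Each pool is an experiment of its own, so pool, animals and culture cannot be told apart.

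**Figure D4:**
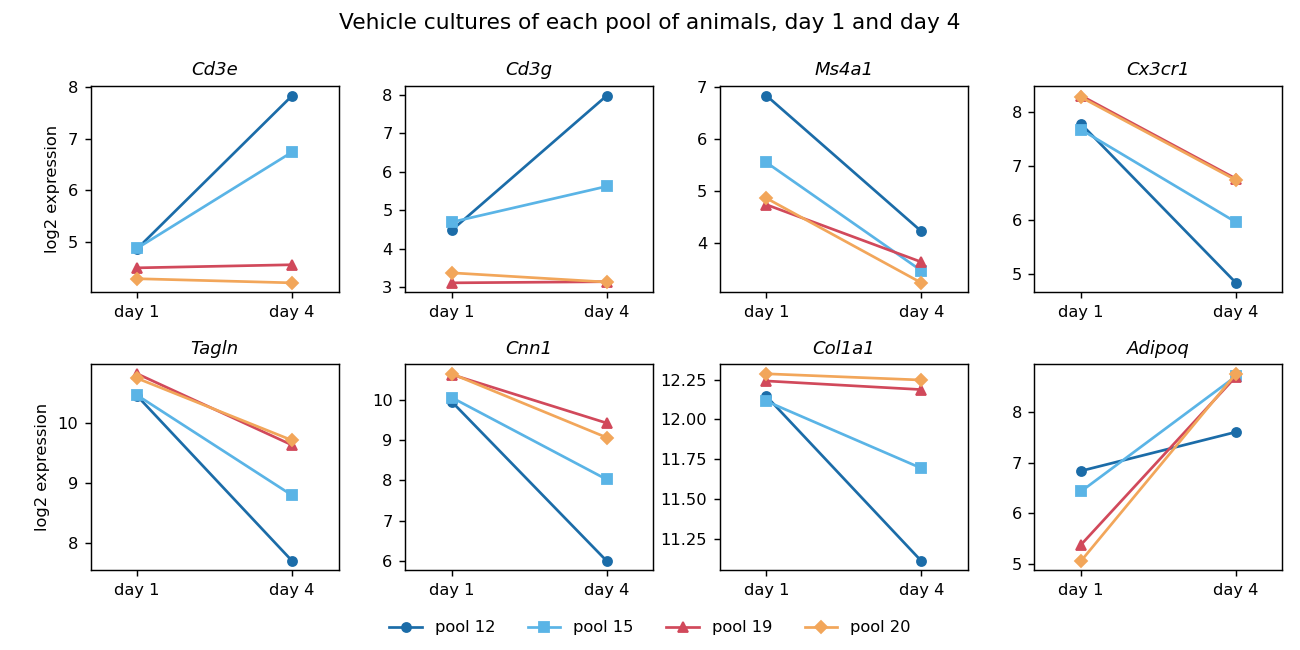
Log2 expression of 8 genes in the vehicle cultures of each pool at day 1 and day 4, with a line for each pool. Cd3e and Cd3g stand highest at day 4 in pools 12 and 15 (7.83 and 6.74 for Cd3e), Tagln, Cnn1 and Col1a1 fall furthest in pool 12, and Ms4a1, Cx3cr1 and Adipoq move the same way in all 4 pools.

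Several gene groups gave 3 calls or fewer, where 4.6% of all genes rose and 8.29% fell. Of 23 unfolded protein response genes 1 fell (4.35%), Hsp90b1, a chaperone of the endoplasmic reticulum (-0.29 ± 0.08, adjusted p = 0.0156). Of 19 ribosome biogenesis genes 2 fell (10.5%), Nop58 and Dkc1, both of nucleolar RNA modification, by 0.46 (0.0456) and 0.28 (0.0482). Of 22 amino acid response genes 3 rose (13.6%, above the share of all genes), led by Vldlr, a lipoprotein receptor (1.75 ± 0.29, 6.14e-05). Of 19 inflammatory genes 1 fell (5.26%), Ptx3, pentraxin 3 (-0.90 ± 0.27, 0.0228). None passed limma's test among 17 clock genes (1 with an unadjusted p under 0.05, 1 with the replicate block), 21 endothelial genes (1 and 0), 21 interferon genes (0 and 0) or 15 genes of mast cells, basophils and eosinophils (4 and 2, 1 of them higher and 1 lower). Among other settings, the calls of Nop58, Dkc1 and Ptx3 ended without pool 19 (0.25, 0.353 and 0.157) and without pool 20 (0.23, 0.246 and 0.147), and that of Hsp90b1 likewise (0.146 and 0.0786).

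The vehicle change was then set beside that in cultures dosed with Rosi (rosiglitazone, 100 nM, an agonist of PPARγ), LG268 (100 nM, an agonist of RXR) and TBT (tributyltin, 80 nM), by an interaction term in the same fit. The 3 comparisons share the vehicle arrays, so they are not independent of each other. Many genes described below were chosen on their vehicle difference, which the interaction term subtracts. Their interaction p-values are therefore not independent of that choice. With Rosi the change over time differed from that with vehicle in 4480 genes (30% of those tested), with LG268 in 12 (0.0805%) and with TBT in 264 (1.77%). With the replicate block these counts were 5140, 32 and 621. Leaving out a pool moved the counts for LG268 between 2 and 45 and those for TBT between 20 and 630.

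Among the genes with the largest rises, 4 secreted or matrix proteins had a day-4 mean below day 1 with Rosi. Choosing genes by a large vehicle rise tends to make their interactions negative, so the p-values below are descriptive. Efemp1 read 7.23, 7.02, 6.34 and 6.56 at day 1 and 9.65, 8.61, 8.82 and 8.42 at day 4 with vehicle, a rise of 2.09. With Rosi its mean went from 8.80 to 8.54, a difference of -0.27 (interaction -2.35 ± 0.31, adjusted p = 2.57e-07). Ccn3 read 5.84, 5.94, 5.76 and 6.00 and then 8.47, 6.79, 8.69 and 8.44 with vehicle. With Rosi the mean of Ccn3 went from 7.33 to 6.66 (interaction -2.88 ± 0.45, 4.56e-06). For both genes the day-1 mean was higher with Rosi than with vehicle, and that difference at day 1 was not tested.

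Dcn went from 6.55 to 6.51 with Rosi (interaction -2.001 ± 0.39, adjusted p = 0.000102), and Vit from 6.24 to 5.38 (-2.64 ± 0.45, 1.35e-05). Gja1, the gap junction gene, went from 10.27 to 8.88 (-2.15 ± 0.29, 4.72e-07). The interaction of LG268 passed in none of these 5 genes, with adjusted p from 0.886 to 0.999, and that of TBT in none either, with adjusted p from 0.199 to 0.888. A p above the threshold does not show that those changes were alike.

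For the osteoclast genes Ctsk and Dcstamp the difference over time was lower with Rosi and with TBT than with vehicle. Ctsk rose by 1.495 with vehicle, and went from 7.19 to 6.69 with Rosi (interaction -1.997 ± 0.40, adjusted p = 0.000145) and from 7.35 to 7.23 with TBT (-1.61 ± 0.40, 0.0232). With LG268 it went from 7.50 to 7.84 (-1.15 ± 0.40, 0.486). Dcstamp differed in the same way (Rosi -1.20 ± 0.25, 0.000259; TBT -0.99 ± 0.25, 0.0277; LG268 -0.92 ± 0.25, 0.203). For Acp5 no interaction passed (0.684 with Rosi, 0.199 with TBT, 0.837 with LG268). In all, 11 of 29 osteoclast genes had a change that differed with Rosi, 3 with TBT and 0 with LG268 by limma, against 30%, 1.77% and 0.0805% of all genes.

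Alpl, not called with vehicle (-0.01, adjusted p = 0.991), went from 10.06 to 8.19 with Rosi (interaction -1.86 ± 0.39, adjusted p = 0.000235) and from 10.21 to 8.59 with TBT (-1.62 ± 0.39, 0.0178). Ifitm5 rose by 1.93 with vehicle and differed by 0.25 with Rosi (interaction -1.68 ± 0.44, 0.00308). For LG268 (0.14) and TBT (0.39) the interaction of Ifitm5 passed with the replicate block (0.0254 and 0.0147) and not without it (0.109 and 0.0594). Of 34 osteoblast genes 20 had an interaction with Rosi, 0 with LG268 and 3 with TBT. Among all genes tested these shares were 30%, 0.0805% and 1.77%.

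For 2 contractile genes with large falls no interaction passed. Tagln fell by 1.66 with vehicle and differed by -1.72 with Rosi (interaction -0.07 ± 0.34, adjusted p = 0.917), -1.67 with LG268 (-0.01 ± 0.34, 0.999) and -2.23 with TBT (-0.57 ± 0.34, 0.429). Cnn1 differed by -2.48 with Rosi (adjusted p = 0.74 for the interaction), -2.48 with LG268 (0.979) and -3.25 with TBT (0.304). Of 34 contractile genes 11 had an interaction with Rosi, and 0 with LG268 or TBT, so that the count with Rosi was near the 30% of all genes. Cell cycle genes fell further with Rosi: Birc5 went from 6.26 to 4.08 (interaction -1.25 ± 0.25, 0.000172), and 39 of 43 had an interaction, against 0 with LG268 and 1 with TBT. The median cell cycle difference was -0.53 with vehicle, -1.74 with Rosi, -0.64 with LG268 and -1.1 with TBT.

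Lipid genes parted in direction. Cyp51 fell by 1.06 with vehicle, but went from 8.90 to 9.86 with Rosi (interaction 2.01 ± 0.28, adjusted p = 6.27e-07). Of 19 sterol synthesis genes 13 had an interaction with Rosi, 0 with LG268 and 1 with TBT. Among all genes tested these shares were 30%, 0.0805% and 1.77%. Adipoq rose less with Rosi (1.02, interaction -1.504 ± 0.47, 0.0114), from a day-1 mean of 8.99 against 5.93 with vehicle. The adipocyte list did not follow Adipoq. Its median difference was 0.43 with vehicle, 1.75 with Rosi, 0.75 with LG268 and 1.84 with TBT. Of its 32 genes tested, 20 had an interaction with Rosi, 0 with LG268 and 16 with TBT. With Rosi, 24 of 25 fatty acid oxidation genes and 28 of 29 respiratory chain genes had an interaction. Pkp2, which fell with vehicle from 6.98, 6.99, 7.64 and 7.71 to 5.20, 5.64, 6.01 and 5.90, went from 6.83 to 7.83 with Rosi (2.65 ± 0.25, 2.71e-10).

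**Figure D5:**
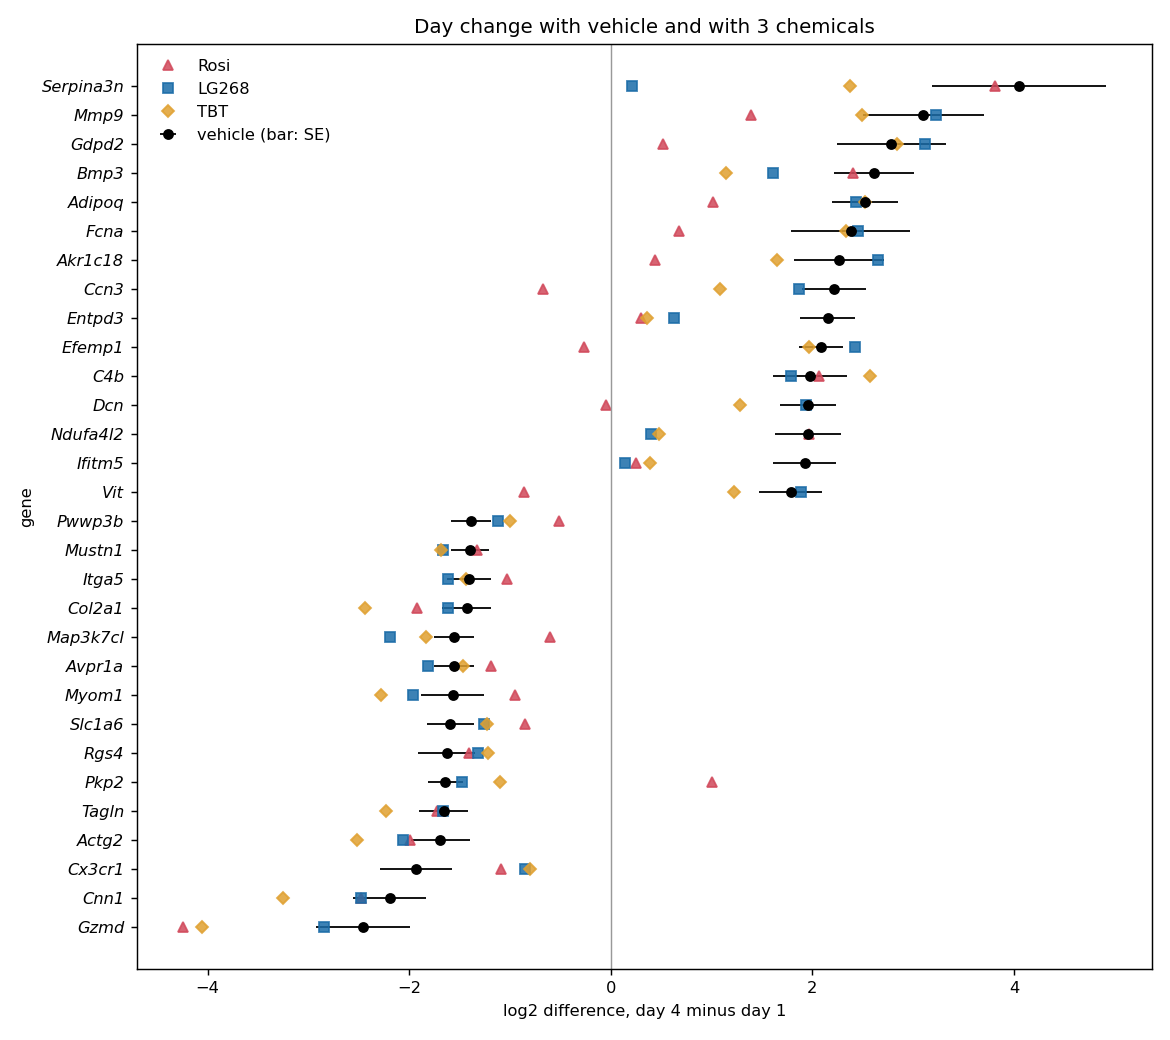
Log2 difference, day 4 minus day 1, on the x axis for the 15 largest rises and 15 largest falls with vehicle (black, with limma's SE) and for the same genes with Rosi (red triangles), LG268 (blue squares) and TBT (orange diamonds). The genes were chosen on the vehicle values. All 15 falls lie below 0 in every treatment except Pkp2 with Rosi (1.00), while among the rises Ccn3, Efemp1, Dcn and Vit lie below 0 with Rosi.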

How the data were processed

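RNA was measured on 52 Affymetrix GeneChip arrays, 13 groups of 4. The deposited values are log2 expression per probe set, for which the submitters' processing notes name R 3.3.1 and the oligo package. The authors' background correction, normalization and genome build were not found in the labels or the file. Of 41345 probe sets, 23521 carried 1 gene symbol and were used, 1814 carried several and 16010 were unnamed. Of 22180 genes, 1082 had several probe sets, of which the probe set brightest on average was taken. Genes with at least 4 arrays above the median of the table (4.05) were tested, and 7269 were not. Arrays give no counts, so their number limits the precision.

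Group means were fitted with limma over all 52 arrays (39 residual and 3.45 prior degrees of freedom, two-sided, Benjamini-Hochberg over 14911 genes, threshold 0.05). The number in the titles was read as the pool of animals, which the labels call an experiment. Same-numbered vehicle arrays had deviations from the group means that correlated at 0.172, 0.34, 0.208 and 0.25 (pools 12, 15, 19 and 20), all over 0.1, so the numbers were taken to pair the samples, although pool 20 correlated more with pool 19 (0.314). The blocked value stands beside a result where it changed the call. No 2 arrays were identical. Where nothing tells whether cultures of a pool were separate, p-values measure the spread between these arrays.

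Gene lists (43, with 929 different genes tested) were described by counts and medians, with no test of a list, and lists share members. The comparison and the lists were chosen with earlier results of these data known. Named were the 15 largest rises and falls that moved the same way in 4 of 4 pools and held without each pool, up to 5 called members of a described list (lowest adjusted p), a set of key genes, and up to 5 genes of each interaction. Genes with a promoter stretch, other genes with a motif and further Wnt antagonists are named as well. So are the T cell, NK cell and macrophage markers and some other immune cell markers. Not every such gene is described. Promoters came from RefSeq (GRCm38.p6); matches were by symbol.

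On simulated data for day 4 minus day 1 (14911 genes, 200 changed), limma found 50% of the changes of size 0.5 (log2), 94% of size 1, 98% of size 1.5 and 98% of size 2, with 7.61% of 184 calls among unchanged genes. The simulated noise was normal and independent, with 1 spread per gene pooled over all 13 groups and no pool effect. The vehicle arrays differ from that: for Cnn1 the SD was 0.37 at day 1 and 1.54 at day 4. The simulated shares therefore do not give the performance on these arrays. The alternatives were a replicate block, a fit of only those arrays that enter a comparison, both together, each pool left out, cyclic loess, averaged probe sets, and the filter removed or raised to 6.34. Fits ran in limma 3.58.1 under R 4.3.3 with the data.table package (1.17.8). Summaries and plots came from Python 3.11.15, with numpy 2.4.6 for arrays, matplotlib 3.10.9 for plots and pandas 2.3.3.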

Additional observations from a re-analysis of the deposited data

Results flagged for a closer look

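In the vehicle groups, 10 values of the genes named stood far from the other 3 arrays of their group, by a gap past Dixon's 95% limit. In all, 356 groups were looked at, and chance alone marks about 1 in 20 groups. At day 4, pool 12 was low in Adipoq (7.61), Cygb (6.5) and Mlxipl (4.28) and high in Birc5 (5.47). Pool 15 was low in Ccn3 (6.79). Pool 20 was low in Mepe (3.9) and high in Vldlr (7.41). At day 1, pool 12 was low in Angptl4 (7.67) and high in Col2a1 (8.75), and pool 20 was high in Mustn1 (9.71).

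The change over time differed from that with vehicle, by limma's interaction term, in the 5 genes of smallest adjusted p for each chemical. With Rosi the difference was 5.91 for Cyp2e1 (adjusted p = 2.96e-12), a cytochrome P450 that was near background on all 8 vehicle arrays. It was 2.57 for Ctcflos (1.4e-11), 1.92 for Dusp16 (1.75e-11), 2.25 for Dusp8 (1.19e-10), both phosphatases of MAP kinases, and 1.6 for Coq10b (1.75e-11). With LG268 it was 2.71 for Cldn11 (1.55e-05), a tight junction protein, 2.43 for Apod (3.5e-05), a lipocalin, 2.87 for Moxd1 (0.000262), 1.23 for Cygb (0.00101), cytoglobin, and 0.89 for Axl (0.00449). With TBT it was 2.73 for Mlxipl (4.95e-05), which encodes ChREBP, 2.54 for Agpat2 (5.03e-05), of triglyceride synthesis, 1.42 for Ace (0.00013), 2.94 for Pde3b (0.00013) and 2.31 for Cldn11 (0.00013). In each, the day-4 minus day-1 difference was above that with vehicle.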

How the results depend on the processing

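The 686 rises and 1236 falls became 1069 and 1536 with the replicate block, 210 and 358 with only the arrays compared, and 235 and 419 with those arrays and the replicate block. Leaving out each pool gave 216 to 662 rises and 569 to 896 falls. For Rosi, 2406 to 4365 interactions passed without a pool. For LG268 the replicate block gave 32, the arrays compared with the block 23, and leaving out a pool 2 to 45. For TBT these were 621, 641 and 20 to 630. The causes of these differences were not tested. Fits with fewer arrays have fewer degrees of freedom, and a fit of only the arrays compared also takes its spread from those groups alone. These 2 were not told apart. The replicate block ended no call of the vehicle comparison: all 686 and 1236 passed with it.

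Some differences near 0, none of them called, changed sign. Leaving out each pool, Alpl ran from -0.231 to 0.373 (0.057 without pool 15), Pparg from -0.108 to 0.109 (0.038 without pool 15) and Sp7 from -0.481 to 0.32. Pde3b ran from -0.06 to 0.298, Cebpa from -0.081 to 0.163 (-0.042 without pool 20) and Cyp2e1 from -0.018 to 0.177 (-0.014 without pool 20). After cyclic loess Alpl was 0.05 and Pparg 0.044. Readings under 4.05 lie near background, where sizes are uncertain.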
